A study of Mus musculus with 6 samples.

Results

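Expression of 37 genes of glycolysis and of the response to hypoxia through HIF-1 was examined in regulatory T cells (Tregs) sorted from B16.F10 melanoma tumors, with and without the glucocorticoid receptor (GR), the product of *Nr3c1*. The genes were taken from a list of glycolytic enzymes, glucose and lactate transporters, HIF-1 regulators and HIF-1 targets, defined by function, and all 37 had a row among the 12153 genes measured. They were 2 glucose transporters, 3 genes of the hexokinase and isomerase steps, 4 of the phosphofructokinase step, 8 of lower glycolysis, 6 that direct pyruvate and lactate, 3 for HIF-1 and its hydroxylases, and 11 further HIF-1 targets. RNA-Seq was done on 6 libraries at day 15 after inoculation of the tumor cells. The 3 Control libraries came from mice whose genotype is given as Nr3c1-flox, with no Cre named, and the 3 Nr3c1-Foxp3Cre libraries from mice with the same floxed *Nr3c1* and a Foxp3-YFP/Cre allele, in which the *Foxp3* promoter drives Cre and deletes GR in Tregs. The labels describe the cells as CD4+ and CD25+ and the study's methods describe a sort on Foxp3-YFP, a reporter that a mouse without the allele would lack, so a difference in gating and the genotype cannot be told apart. All tumors were digested with Liberase TL and DNase I before the sort. Nothing read in the labels or methods says that each library came from a separate mouse, so p-values measure the spread between these libraries.

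Glycolysis splits glucose into pyruvate in the cytosol and yields ATP without oxygen. Pyruvate is then reduced to lactate, which is exported, or enters mitochondria, a step that pyruvate dehydrogenase kinases restrain. HIF-1 is a transcription factor made of an oxygen-labile alpha subunit and a stable beta subunit. In oxygen, prolyl hydroxylases mark the alpha subunit for destruction, and in hypoxia it accumulates and raises transcription of most glycolytic genes and of genes for angiogenesis and mitophagy. Tregs in solid tumors meet low oxygen and low glucose, and HIF-1 and glycolysis are known to bear on their stability and suppressive function, while GR is known for its control of metabolic genes in several tissues.

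HIF-1 binds short elements that hold the core ACGTG or GCGTG. Most members with a promoter sequence hold that core near a start site, and the stretches below are shown because they belong to HIF-1 targets from different steps whose levels are described further on. RefSeq promoters of GRCm38.p6, which run from 250 bases before to 50 bases after a start site, were found for 33 of the 37 genes, with 54 start sites. The core, on either strand, was in 43 of these 54 promoters, or 79.6%, and in at least 1 promoter of 31 of the 33 genes, *Gpi1* and *Tpi1* being the exceptions. The share of promoters was 61.9% over 11963 promoters of genes in the table and 43.8% over all 32851 promoters. At least 2 matches were in 59.3% of the members' promoters and in 33.5% of those of genes in the table. The members' promoters were also richer in G and C, with a median of 64.5% against 60.7%, and the part of base composition in these shares was not tested. One arm of the GR response element, AGAACA or TGTTCT on either strand, was in 14.8% of the members' promoters and in 12.5% of those of genes in the table. The full palindromic GR response element was in 0 of 54, beside 1 of the 11963 promoters of genes in the table. An exact match is so rare that this count says nothing about the members. The 250 bases before 1 start site of each of 5 genes, the one with the most matches where a gene has several, are given 5′ to 3′ on the strand of the gene, with matches to the HIF core in capitals, where CACGTG holds 2 overlapping matches, one on each strand. A match is a run of letters and not a shown binding site. *Ldha* (lactate dehydrogenase A, chr7:46845554-46845803, plus strand) and *Bnip3* (a mitophagy receptor, chr7:138909507-138909756, minus strand) held 5 matches each. *Pgk1* (phosphoglycerate kinase, chrX:106186850-106187099, plus strand) and *Slc2a1* (a glucose transporter, chr4:119108495-119108744, plus strand) held 2 each, and *Kdm3a* (a histone demethylase, chr6:71632918-71633167, minus strand) held 1. The other start site of *Ldha* had 1 match in its 250 bases, and the other 2 of *Kdm3a* had 0.
Ldha: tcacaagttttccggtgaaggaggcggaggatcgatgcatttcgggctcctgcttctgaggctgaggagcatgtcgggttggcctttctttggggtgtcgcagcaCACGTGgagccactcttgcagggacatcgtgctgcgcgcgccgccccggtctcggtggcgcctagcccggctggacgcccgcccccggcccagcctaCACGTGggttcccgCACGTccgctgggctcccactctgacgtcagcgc
Bnip3: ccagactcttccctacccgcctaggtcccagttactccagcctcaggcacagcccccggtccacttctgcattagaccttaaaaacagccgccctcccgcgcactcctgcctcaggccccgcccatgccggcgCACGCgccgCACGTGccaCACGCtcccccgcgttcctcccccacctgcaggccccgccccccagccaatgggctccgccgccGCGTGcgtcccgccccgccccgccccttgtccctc
Pgk1: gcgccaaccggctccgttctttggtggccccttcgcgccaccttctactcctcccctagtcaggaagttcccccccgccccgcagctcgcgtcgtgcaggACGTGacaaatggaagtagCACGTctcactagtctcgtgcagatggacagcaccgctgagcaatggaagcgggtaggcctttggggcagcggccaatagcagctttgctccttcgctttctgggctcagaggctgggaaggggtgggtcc
Slc2a1: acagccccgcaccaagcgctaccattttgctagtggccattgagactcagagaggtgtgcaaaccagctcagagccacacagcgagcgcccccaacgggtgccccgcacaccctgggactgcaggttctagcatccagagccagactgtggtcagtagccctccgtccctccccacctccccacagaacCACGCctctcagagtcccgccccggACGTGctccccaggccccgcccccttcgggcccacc
Kdm3a: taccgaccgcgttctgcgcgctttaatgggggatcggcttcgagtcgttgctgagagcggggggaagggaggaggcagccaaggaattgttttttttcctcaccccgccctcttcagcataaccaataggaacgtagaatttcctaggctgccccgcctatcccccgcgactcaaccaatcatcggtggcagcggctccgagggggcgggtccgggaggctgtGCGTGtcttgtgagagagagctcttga

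The cells carried Treg transcripts. All 8 Treg markers had a row, summing to 4705 to 6348 CPM (read counts scaled to a common library total) in Control and 4750 to 5243 CPM in Nr3c1-Foxp3Cre libraries, with *Foxp3* at only 3.39 to 4.47 log2 CPM. Melanoma markers were abundant, at 3409 to 9134 CPM in Control and 3802 to 9537 CPM in Nr3c1-Foxp3Cre libraries. Each of the 37 members was correlated with their mean over the 6 libraries, and Pearson r was above 0 for 12 and below 0 for 25. At an unadjusted exact permutation p under 0.05, r was above 0 for *Ldhb* and below 0 for *Egln3*, *Pfkm* (-0.85), *Slc16a3* (-0.83) and *Slc2a3* (-0.82). Without the 2 libraries farthest from the median of the marker mean, the values in parentheses became -0.70, -0.73 and -0.10. Spearman rho at that limit was above 0 for *Ldhb* and below 0 for *Egln3*, *Hk1* and *Ldha*. The smallest adjusted p of the exact permutation tests was 0.308 for Pearson r and 0.103 for Spearman rho. All 5 fibroblast markers had lower means in Nr3c1-Foxp3Cre Tregs, with totals of 187 to 460 CPM against 76.7 to 167 CPM. All 10 macrophage and monocyte markers and all 3 erythroid markers also had lower means there, with overlapping groups for each gene, and totals of 398 to 586 CPM against 283 to 565 CPM and of 58.3 to 102 CPM against 28.8 to 69.2 CPM. *Nr3c1* itself was at 7.15, 7.59 and 6.88 log2 CPM in Control and at 6.14, 5.45 and 5.90 in Nr3c1-Foxp3Cre libraries. The read depth of the libraries is unknown from the table used here, which holds log2 CPM after quantile normalization. In sorted bulk RNA, fewer cells of a type and less RNA per cell cannot be told apart.

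Transcripts of several glycolytic genes were among the most abundant of all genes in these libraries. The libraries also held melanoma markers, so these levels cannot be assigned to Tregs alone. CPM were divided by kb of exon, counting all annotated exons of a gene and not only those of the transcripts expressed. The order of genes therefore depends on these lengths. *Ldha* had a median of 1137 CPM per kb over the 6 libraries (range 998 to 1266) and *Eno1*, for the enolase, 1105 (945 to 1228). *Pkm*, for pyruvate kinase, was at 1017 (838 to 1017) and *Gapdh*, for glyceraldehyde-3-phosphate dehydrogenase, at 783 (657 to 800). On this scale the ranges of *Ldha*, *Eno1* and *Pkm* overlapped, and *Gapdh* lay below each of them. *Tpi1*, *Pgk1* and *Pgam1*, which encode the triose isomerase, phosphoglycerate kinase and phosphoglycerate mutase, followed at medians of 522, 425 and 329 CPM per kb. *Hif1a*, the alpha subunit, was at 159 CPM per kb (131 to 193). At the other end were *Ak4*, a mitochondrial adenylate kinase, at 3.01 CPM per kb (1.69 to 4.21), and *Pfkfb3*, whose product makes the activator of phosphofructokinase, at 3.29 (2.22 to 4.15). Together the members took 2.53% to 3.11% of all CPM in a library. No single exon length was available for *Aldoa*, for aldolase A, which the table lists under 2 Ensembl identifiers. *Gapdh*, *Ldha*, *Pgk1*, *Pgam1*, *Tpi1*, *Pkm*, *Eno1* and *Aldoa* have processed pseudogenes of close sequence, and how the authors' counting divided shared reads is uncertain.

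**Figure D1:**
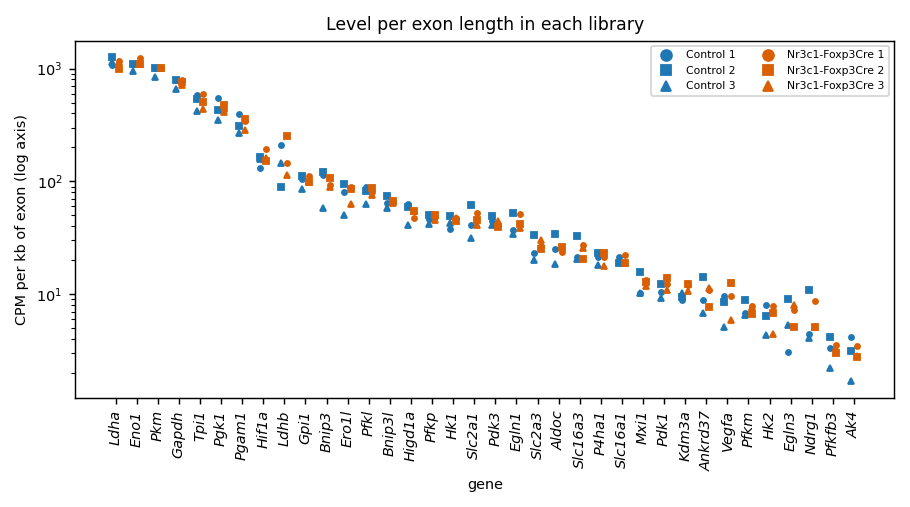
Level of 36 genes in CPM per kb of exon (vertical log axis), one column per gene in order of its median, with blue symbols for the 3 Control and orange symbols for the 3 Nr3c1-Foxp3Cre libraries. Ldha, Eno1 and Pkm overlap at the top near 1000 CPM per kb, Ak4 and Pfkfb3 lie at the bottom, and blue and orange symbols overlap for 35 of the 36 genes, the exception being Kdm3a.

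Loss of GR was not accompanied by a change in any of the 37 genes that passed the test. Since the libraries also held melanoma transcripts, the differences below cannot be assigned to Tregs alone. In the limma fit over all 12153 genes, 0 members were higher and 0 lower at an adjusted p under 0.05. Of all genes tested 7 passed, or 0.0576%, and the smallest adjusted p among members was 1.0. *Nr3c1*, the deleted gene, did not pass this limit either, with a log2 fold change of -1.38 and a limma adjusted p of 0.120. *Tsc22d3*, a gene responsive to glucocorticoids, did pass, with a log2 fold change of -1.56 and a limma adjusted p of 0.0342. At an unadjusted p under 0.05, 1 member was higher, *Kdm3a*, and 0 were lower, beside 1.61% of all genes higher and 1.65% lower. *Kdm3a* was also the only member whose groups did not overlap, with the Nr3c1-Foxp3Cre libraries higher, beside 3.69% of all genes higher and 3.73% lower without overlap. These shares of members, 1 of 37 and 0 of 37, are near or below the shares of all genes. The members' log2 fold changes (Nr3c1-Foxp3Cre minus Control) ran from -0.12 for *Pdk3* to 0.33 for *Egln3* with a median of 0.06, against -0.0014 for all genes. The 95% interval of the difference lay within 1.5-fold either way for 27 of the 37 members (73.0%, and 55.5% of all genes). It lay within 2-fold for 36 of 37 (97.3%, and 80.6% of all genes), *Egln3* being the exception. Mean levels ran from 3.77 to 12.5 log2 CPM for members and from -2.48 to 13.0 for all genes. The part of level in these shares was not tested. Most estimates were slightly above 0, in 32 of 37 members or 86.5% against 49.5% of all genes. That count rested on 1 library: without Control 3 it was 7 of 37 and the median was -0.08, and without Control 2 it was 33 and the median was 0.16.

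**Figure D2:**
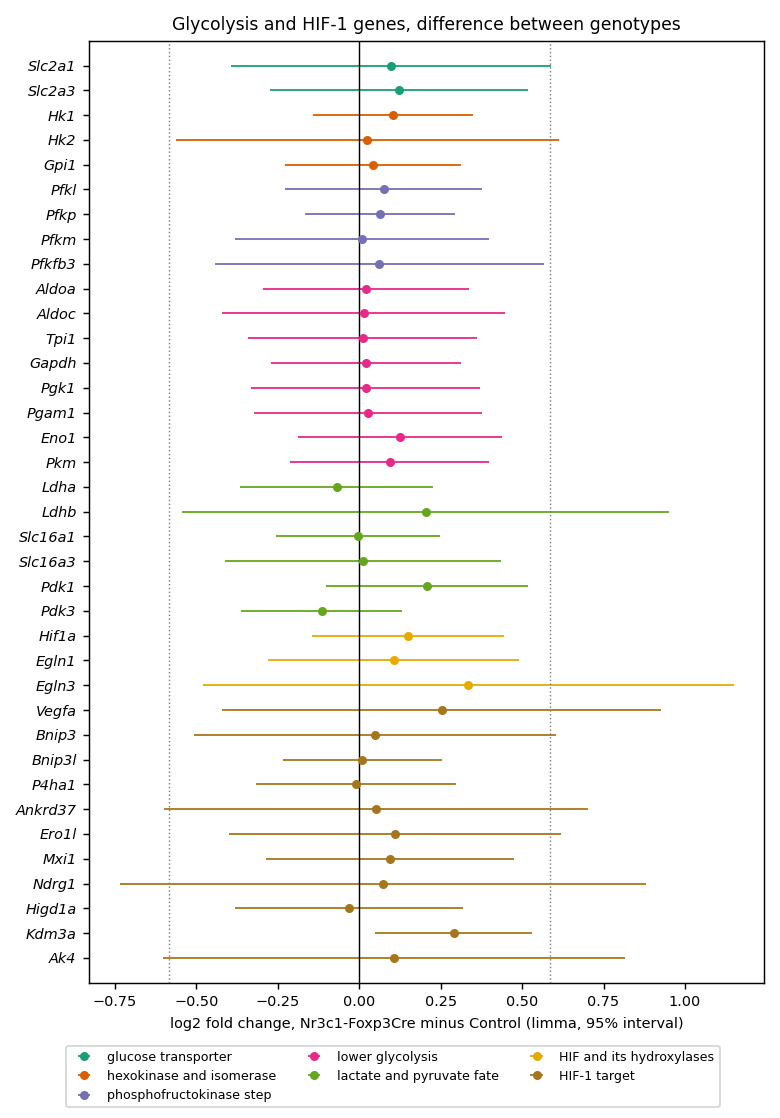
Log2 fold change of each of the 37 genes (horizontal axis, Nr3c1-Foxp3Cre minus Control), with points for limma estimates, bars for 95% intervals, colors for the role of the gene and dotted lines at 1.5-fold either way. Every interval but that of Kdm3a crosses 0, and the widest is that of Egln3.

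The glucose transporters and the first enzymes of the pathway did not pass the test. *Slc2a1* (ENSMUSG00000028645.11, chromosome 4 of mm10 from 119108711 to 119137983), for the basal glucose transporter, was at 7.16, 7.77 and 6.79 log2 CPM in Control and at 7.53, 7.32 and 7.16 in Nr3c1-Foxp3Cre libraries. Both its highest and its lowest value were in Control. The log2 fold change was 0.10 (standard error 0.22, 95% interval -0.40 to 0.59, limma adjusted p = 1.0). *Slc2a3*, for a high-affinity transporter of neurons and lymphocytes, had a log2 fold change of 0.12 (95% interval -0.27 to 0.52). *Hk2*, the inducible hexokinase that traps glucose in the cell, was at 5.59, 5.28 and 4.71 log2 CPM in Control and 5.56, 5.35 and 4.74 in Nr3c1-Foxp3Cre libraries, near the same 3 values in both groups, with a log2 fold change of 0.02 (95% interval -0.56 to 0.61). *Hk1*, the constitutive hexokinase, and *Gpi1*, for glucose-6-phosphate isomerase, had log2 fold changes of 0.10 and 0.04.

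At the phosphofructokinase step, which commits sugar to glycolysis, the 4 log2 fold changes lay between 0.01 for *Pfkm* and 0.08 for *Pfkl*, both phosphofructokinase subunits. *Pfkp*, the platelet-type subunit, was at 0.06 with the narrowest interval of the 4, -0.17 to 0.29. *Pfkfb3* (chromosome 2, 11471433 to 11554077) had levels of 4.65, 4.97 and 4.07 log2 CPM in Control and 4.74, 4.52 and 4.62 in Nr3c1-Foxp3Cre libraries. The Nr3c1-Foxp3Cre values all fell inside the Control range, and the log2 fold change was 0.06 (standard error 0.23, 95% interval -0.44 to 0.57).

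The 8 genes of lower glycolysis differed little between the genotypes, with log2 fold changes from 0.01 for *Tpi1* to 0.13 for *Eno1* and a median of 0.02. All 8 intervals lay within 1.5-fold. Levels of *Aldoa* in Control were 11.41, 11.41 and 11.00 log2 CPM, and in Nr3c1-Foxp3Cre libraries 11.30, 11.34 and 11.23 (log2 fold change 0.02, 95% interval -0.29 to 0.34). *Gapdh* was at 11.69, 11.69 and 11.41 in Control and at 11.69, 11.63 and 11.53 in Nr3c1-Foxp3Cre libraries (log2 fold change 0.02, 95% interval -0.27 to 0.31). For both genes Control 3 was lowest and the groups overlapped. *Pkm* was at 12.31 log2 CPM in 5 libraries and at 12.03 in Control 3. These 5 values are identical because quantile normalization gives a gene the value of its rank: *Pkm* ranked 4 of 12153 in each of them and 7 in Control 3. At such ranks a library can move a gene only in steps, so small differences in RNA could be lost. *Aldoc*, for aldolase C, *Pgk1* and *Pgam1* had log2 fold changes of 0.01, 0.02 and 0.03.

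Genes that direct pyruvate were mixed in sign, with 3 of 6 log2 fold changes above 0. *Ldha* (chromosome 7, 46841475 to 46855627), whose product reduces pyruvate to lactate, was at 11.79, 12.03 and 11.88 log2 CPM in Control and 11.93, 11.69 and 11.88 in Nr3c1-Foxp3Cre libraries. The groups overlapped, with the lowest value in Nr3c1-Foxp3Cre 2, and the log2 fold change was -0.07 (standard error 0.13, 95% interval -0.37 to 0.23, limma adjusted p = 1.0). *Ldhb*, the subunit that favors lactate oxidation, was far more variable, at 8.36, 7.14 and 7.84 log2 CPM in Control and 7.84, 8.62 and 7.48 in Nr3c1-Foxp3Cre libraries, and the log2 fold change of 0.20 had an interval of -0.55 to 0.95. Its level ran with the mean of the 7 melanoma markers over the 6 libraries (Pearson r = 0.93, exact permutation p = 0.0167, and Spearman rho = 0.89, exact permutation p = 0.0333). Without the 2 libraries farthest from the median of the marker mean r was 0.89, and the adjusted p over the 37 genes was 0.308.

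The lactate exporter gene *Slc16a3* had levels of 6.82, 7.44 and 6.76 log2 CPM in Control and 7.20, 6.76 and 7.10 in Nr3c1-Foxp3Cre libraries. One Control library stood above the rest, and the log2 fold change was 0.01 (95% interval -0.41 to 0.44). *Slc16a1*, for a lactate carrier that works in both directions, had a log2 fold change of -0.0039 (95% interval -0.25 to 0.25). *Pdk1*, the kinase gene induced by HIF-1 that closes entry of pyruvate to mitochondria, was at 6.36, 6.59 and 6.18 in Control and 6.58, 6.77 and 6.42 in Nr3c1-Foxp3Cre libraries. Its groups overlapped, and the log2 fold change of 0.21 (standard error 0.14, 95% interval -0.10 to 0.52) gave a limma unadjusted p of 0.165 and an adjusted p of 1.0. *Pdk3*, a second kinase gene of this family, had the lowest estimate of all members, -0.12 (95% interval -0.36 to 0.13).

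Of the HIF genes, *Hif1a* (chromosome 12, 73901375 to 73947530) had levels of 9.60, 9.92 and 9.86 log2 CPM in Control and 10.15, 9.80 and 9.88 in Nr3c1-Foxp3Cre libraries. Nr3c1-Foxp3Cre 1 was highest and Control 1 lowest, with the other 4 between 9.80 and 9.92, and the log2 fold change was 0.15 (standard error 0.13, 95% interval -0.15 to 0.44). *Hif1a* RNA does not show the amount of the protein, which oxygen controls by degradation. *Egln3*, a prolyl hydroxylase gene that is itself a HIF-1 target, was at 3.03, 4.59 and 3.84 log2 CPM in Control and 4.28, 3.77 and 4.43 in Nr3c1-Foxp3Cre libraries. It had the widest interval of the members, -0.48 to 1.15 around 0.33, and without Control 1 the estimate was -0.06. Its level ran opposite to the melanoma markers (Pearson r = -0.86, exact permutation p = 0.0139, and Spearman rho = -1.0, exact permutation p = 0.00278). After adjustment over the 37 genes p was 0.308 for r and 0.103 for rho, and a lone gene cannot fall below 0.103 by rho with 6 libraries. Without the 2 farthest libraries r was -0.86. *Egln1*, the main prolyl hydroxylase gene, had a log2 fold change of 0.11 (95% interval -0.28 to 0.49).

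Of the further HIF-1 targets, *Kdm3a* (ENSMUSG00000053470.13, chromosome 6, 71588972 to 71632990), a demethylase of histone H3 lysine 9 that hypoxia induces, was at 6.20, 6.28 and 6.40 log2 CPM in Control and 6.62, 6.65 and 6.47 in Nr3c1-Foxp3Cre libraries. Each Nr3c1-Foxp3Cre library was above each Control library, with the nearest pair 6.40 and 6.47. The log2 fold change was 0.29 (standard error 0.11, 95% interval 0.05 to 0.53), or 1.22-fold, with a limma unadjusted p of 0.0233 and an adjusted p of 1.0. Over 13 other settings, those that left out a library included, the unadjusted limma p lay between 0.0196 and 0.0744 and the adjusted p between 0.457 and 1.0. The unadjusted limma p was 0.0744 without Control 1, 0.0584 without Nr3c1-Foxp3Cre 1, 0.0734 without Nr3c1-Foxp3Cre 2, 0.0542 with sample quality weights and 0.0695 in a fit that blocks on replicate number. Against the melanoma marker mean *Kdm3a* had a Pearson r of 0.14 (exact permutation p = 0.762) and a Spearman rho of -0.03 (exact permutation p = 1.0), with r at -0.44 without the 2 farthest libraries. Of 2 endothelial markers with a row, *Pecam1* was also without overlap (log2 fold change 0.28, limma unadjusted p = 0.0436, adjusted p = 1.0) and *Kdr* was at -0.13 with overlap, and their part in the *Kdm3a* difference was not tested.

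*Vegfa*, for the angiogenic growth factor, was at 5.36, 5.19 and 4.46 log2 CPM in Control and 5.37, 5.74 and 4.66 in Nr3c1-Foxp3Cre libraries. One library of each group lay well below the other pair, and the log2 fold change of 0.25 had an interval of -0.42 to 0.93. *Bnip3* was at 8.02, 8.11 and 7.04 in Control and 7.73, 7.93 and 7.66 in Nr3c1-Foxp3Cre libraries. Control 3 was far below the other 5, and the log2 fold change of 0.05 (standard error 0.25, 95% interval -0.51 to 0.60) became -0.29 without it. *Bnip3l*, a related mitophagy receptor gene, differed by 0.01 (95% interval -0.23 to 0.25). The remaining targets were *P4ha1*, for a collagen prolyl hydroxylase subunit, *Ankrd37*, *Ero1l*, for an oxidase of the endoplasmic reticulum, *Mxi1*, a MYC antagonist, *Ndrg1*, *Higd1a*, a mitochondrial protein gene, and *Ak4*. Their log2 fold changes ran from -0.03 for *Higd1a* to 0.11 for *Ero1l*, and all had overlapping groups.

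Across libraries the members were shifted mainly in Control 3 and Control 2. Control 3 had the lowest value for 27 of the 37 genes, against 9.95% of all genes, and the highest for 0. Control 2 had the highest value for 17, against 19.5% of all genes, with the highest value tied for 4 members. With each gene centered on its 6-library mean, the members averaged 0.01, 0.18 and -0.30 log2 CPM in Control 1 to 3 and 0.12, 0.04 and -0.05 in Nr3c1-Foxp3Cre 1 to 3. The Control libraries therefore spanned the whole range, and the group means, -0.04 ± 0.24 (SD, n = 3) and 0.04 ± 0.09 (SD, n = 3), were closer than the Control SD. For 24 of 37 members (64.9%, and 20.3% of all genes) all 3 Nr3c1-Foxp3Cre values lay within the Control range. The SD was larger in Control for 32 of 37 members (86.5%, and 49.7% of all genes), with a median SD of 0.29 in Control and 0.14 in Nr3c1-Foxp3Cre libraries.

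The low values of Control 3 ran through most roles. It was lowest for both glucose transporters, all 4 genes of the phosphofructokinase step, all 8 of lower glycolysis and 9 of 11 further HIF-1 targets, but for 2 of 3 genes of the hexokinase and isomerase steps, only 1 of the 6 genes of pyruvate and lactate and 1 of 3 HIF and hydroxylase genes. Outside the members it was lowest for 0 of 8 genes of the pentose phosphate pathway, which draws on the same glucose-6-phosphate, for 2 of 10 genes of pyruvate entry to mitochondria, for 2 of 10 other glycolysis genes, for 2 of 13 HIF pathway genes and for 9 of 26 other HIF-1 targets. It was lowest for 1 of 8 Treg markers and 0 of 7 melanoma markers, and its melanoma total of 6850 CPM lay inside the range of the other Control libraries. Genes induced by tissue dissociation were also low there, with 5 of 8 lowest in Control 3 and a total of 1628 CPM against 1794 to 2357 CPM in the other 5 libraries, and their part was not tested. The limma sample quality weights, which rest on all genes, gave Control 3 the highest weight, 7.47, against 0.52 to 0.86 for the others, so over all genes it lay closest to the fit. With these weights the members' median log2 fold change was 0.25, with 35 of 37 above 0 and 10 higher at an unadjusted p under 0.05, where 6.29% of all genes were higher at that limit, and 0 members had an adjusted p under 0.05.

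**Figure D3:**
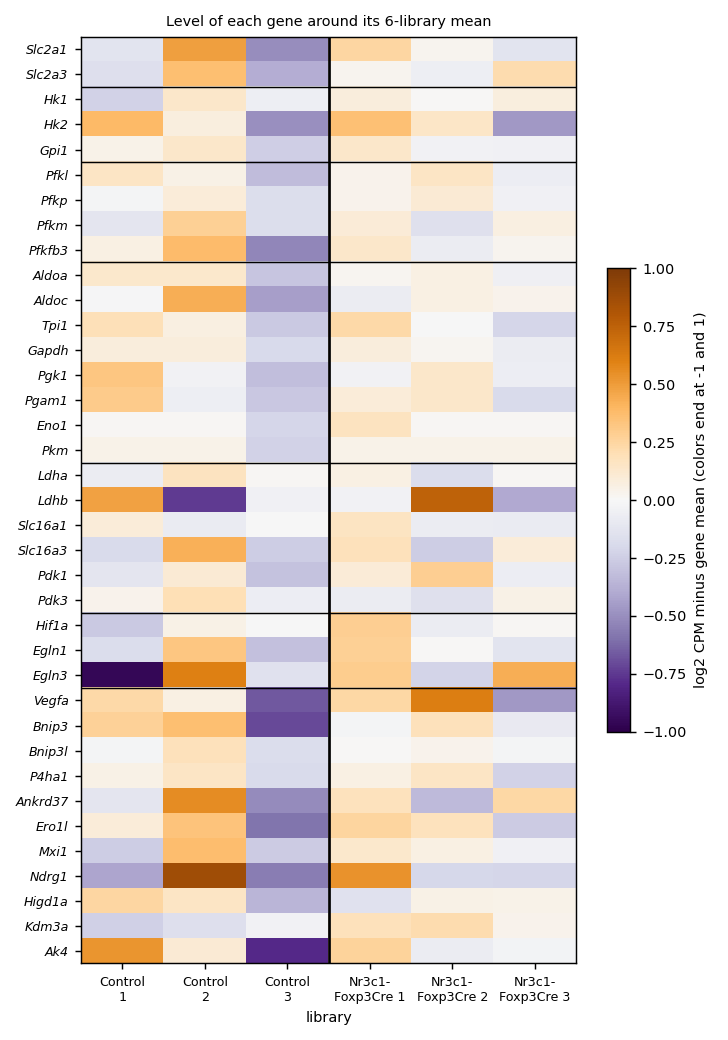
Level of each of the 37 genes (rows, by role, with lines between roles) in each library (columns), as log2 CPM minus the 6-library mean of the gene, from purple below to orange above. The column of Control 3 is purple for 36 of 37 genes and that of Control 2 orange for most, while the Nr3c1-Foxp3Cre columns are paler.

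**Figure D4:**
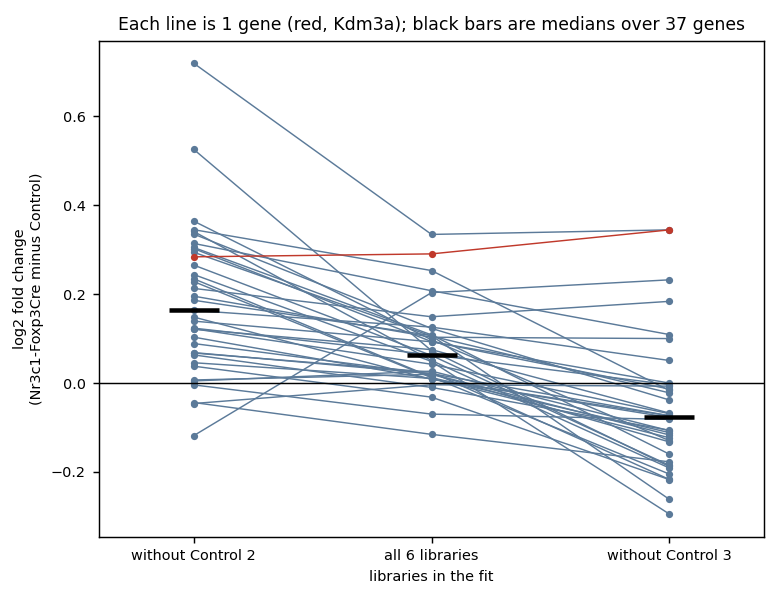
Log2 fold change (vertical axis) of the 37 genes, 1 line each, from fits without Control 2, with all 6 libraries and without Control 3, with black bars for the medians. The medians fall from 0.16 through 0.06 to -0.08, and the line of Kdm3a (red) stays near 0.3.

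The balance between related genes was also compared, since a difference of log2 values within a library does not depend on a scale shared by all genes. In 9 pairs, the groups overlapped in all, and exact two-sided permutation tests of 3 libraries against 3, whose smallest p is 0.1, gave p from 0.2 to 1.0, with adjusted p of 1.0 throughout. The largest shift was in *Pdk1* minus *Pdk3*, which was -0.47, -0.40 and -0.55 in Control and -0.14, 0.12 and -0.43 in Nr3c1-Foxp3Cre libraries. Only Nr3c1-Foxp3Cre 3 lay within the Control range, and the means were -0.47 ± 0.07 (SD, n = 3) and -0.15 ± 0.27 (SD, n = 3), exact p = 0.2. *Ldha* minus *Ldhb* was 4.12 ± 0.74 (SD, n = 3) in Control and 3.85 ± 0.70 (SD, n = 3) in Nr3c1-Foxp3Cre libraries (exact p = 0.7). For *Hk2* minus *Hk1* the means were -3.34 ± 0.53 and -3.42 ± 0.44 (SD, n = 3 each, exact p = 0.9), and for *Slc2a1* minus *Slc2a3* they were -0.26 ± 0.12 and -0.28 ± 0.29 (SD, n = 3 each, exact p = 0.9).

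**Figure D5:**
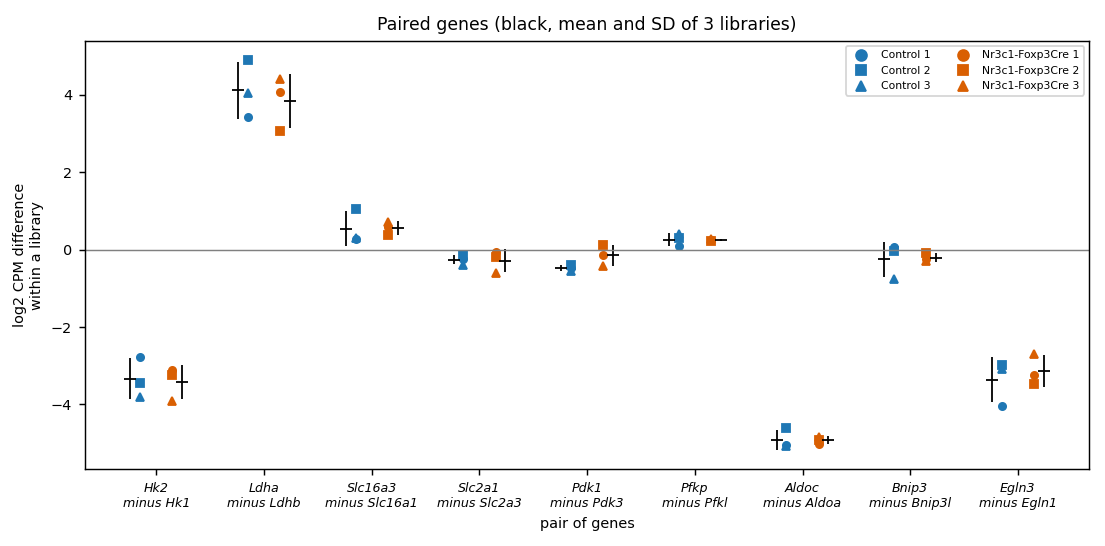
Difference in log2 CPM between 2 related genes within a library (vertical axis) for 9 pairs, with blue symbols for Control, orange symbols for Nr3c1-Foxp3Cre libraries and black bars for the mean and SD of 3 libraries. The groups overlap in every pair, and Pdk1 minus Pdk3 shows the largest gap between means, -0.47 and -0.15.

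The wider pathway gave a like picture. Of 14 further HIF pathway genes, 13 had a row and 0 passed an adjusted p under 0.05, and the same held for 10 of 17 other glycolysis genes, 10 of 11 genes of pyruvate entry, 8 of 8 pentose phosphate genes and 4 of 5 glucose sensing genes with a row. In these 5 lists 0 genes were past an unadjusted p of 0.05, beside 1.61% of all genes higher and 1.65% lower. In lists this short a count of 0 is near those shares. Among 26 of 30 other HIF-1 targets with a row, 1 had groups without overlap, lower in Nr3c1-Foxp3Cre libraries. That is near the 3.73% of all genes that were lower without overlap. The gene was *Lox*, for lysyl oxidase, which cross-links collagen. It was at 3.23, 2.30 and 2.92 log2 CPM in Control and 0.41, 0.88 and 0.31 in Nr3c1-Foxp3Cre libraries. The log2 fold change was -2.28 (standard error 0.36, 95% interval -3.09 to -1.47), with a limma adjusted p of 0.120. Over the other settings the adjusted limma p ran from 0.0071, when sample quality weights were used, to 0.723, when Control 3 was left out. It was 0.0134 with the mean of the melanoma markers in the model and 0.666 in a fit that blocks on replicate number, and the sign was the same in all. The fibroblast genes *Col1a1* and *Col1a2* were also without overlap, with log2 fold changes of -1.87 and -1.69 (limma adjusted p = 0.120 and 0.271), and their part and that of the macrophage markers in the *Lox* difference were not tested.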

How the data were processed

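RNA-Seq of sorted tumor Tregs was analysed in 3 Control and 3 Nr3c1-Foxp3Cre libraries, grouped by the sample labels. The table names the Control columns WT, where the labels give Nr3c1-flox. Reads were trimmed by the authors (Cutadapt), aligned to mm10 with STAR and counted per gene with RSEM on GENCODE M21, low genes were filtered and the libraries were quantile normalized. The deposited values are log2 CPM after that normalization, so read depth cannot be recovered and voom weights, which need counts, were not computed. Counting intervals are not given.

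Genotype was compared across all 12153 genes with limma 3.58.1 (R 4.3.3), using lmFit and then eBayes with a mean-variance trend and no covariate. P-values were adjusted by Benjamini-Hochberg over the whole table, with a limit of 0.05. The script was tested on simulated data. Related genes were compared within a library by exact two-sided permutation tests. Positions and exon lengths came from GENCODE M21, which 99.8% of genes matched, and promoters from RefSeq on GRCm38.p6.

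The members and all gene lists were chosen with earlier results of these data known. Values by library are given for 13 genes set by role and for any member with an unadjusted p under 0.05 or groups without overlap, and for other lists counts and genes that met both. *Ldhb*, *Pkm* and the paired genes shown were added for their values. Alternatives were eBayes without a trend, sample quality weights, a minimum mean log2 CPM of 1, log2(CPM + 1), cyclic loess, a covariate for the mean of the melanoma markers, an adjusted p limit of 0.1, the replicate block and leaving out each library.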

Additional observations from a re-analysis of the deposited data

How the results depend on the processing

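No member had an adjusted p under 0.05, higher or lower, in limma under any of 13 other settings, nor under an adjusted p limit of 0.1, and the smallest adjusted p of a member was 0.312, with sample quality weights. At an unadjusted p under 0.05 the count of higher members was 10 with sample quality weights, 0 with the replicate block and 0 to 6 when 1 library was left out (6 without Control 2, 0 without Control 1, Nr3c1-Foxp3Cre 1 or Nr3c1-Foxp3Cre 2), and the count of lower members was 0 to 1 (*Bnip3*, without Control 3). Over all genes 6.29% were higher at that limit with sample quality weights and 3.45% without Control 2, against 1.61% in the fit reported. The median log2 fold change of the members was 0.25 with sample quality weights, 0.04 to 0.06 under the other settings with 6 libraries, and -0.08 to 0.16 without 1 library, and 7 to 33 members were then above 0. The fit with sample quality weights gave Control 3, the lowest library for 27 of 37 members, a weight of 7.47 against 0.52 to 0.86 for the others. Why the libraries differ was not tested. Direction changed in at least 1 fit without a library for 30 of 37 members, with log2 fold changes of *Ak4* -0.26 to 0.40, *Aldoa* -0.12 to 0.089, *Aldoc* -0.20 to 0.23, *Ankrd37* -0.19 to 0.34, *Bnip3* -0.29 to 0.24, *Bnip3l* -0.077 to 0.10, *Egln1* -0.022 to 0.29, *Egln3* -0.061 to 0.72, *Ero1l* -0.16 to 0.30, *Gapdh* -0.073 to 0.069, *Gpi1* -0.069 to 0.12, *Higd1a* -0.22 to 0.084, *Hk2* -0.22 to 0.26, *Ldha* -0.12 to 0.0012 and *Ldhb* -0.12 to 0.50. The others that changed were *Mxi1* -0.013 to 0.30, *Ndrg1* -0.19 to 0.53, *P4ha1* -0.11 to 0.10, *Pfkfb3* -0.18 to 0.27, *Pfkl* -0.068 to 0.17, *Pfkm* -0.074 to 0.15, *Pfkp* -0.0035 to 0.12, *Pgam1* -0.11 to 0.18, *Pgk1* -0.13 to 0.19, *Slc16a1* -0.083 to 0.041, *Slc16a3* -0.11 to 0.23, *Slc2a1* -0.13 to 0.36, *Slc2a3* -0.038 to 0.33, *Tpi1* -0.12 to 0.12 and *Vegfa* -0.017 to 0.55. Estimates of *Eno1*, *Hif1a*, *Hk1*, *Kdm3a*, *Pdk1* and *Pdk3* kept their sign, and that of *Pkm* was 0 to 0.14.

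With all 6 libraries, the sign turned for *Slc16a1* (0.0058), *P4ha1* (0.13) and *Higd1a* (0.26) with sample quality weights, for *Pfkm* (-0.0047), *Slc16a1* (0.00038) and *Slc16a3* (-0.0080) with a covariate for the mean of the melanoma markers, and for *Aldoc* minus *Aldoa* (0.00027) with cyclic loess. Without 1 library the differences between paired genes that changed sign ran as *Hk2* minus *Hk1* -0.32 to 0.21, *Ldha* minus *Ldhb* -0.62 to 0.12, *Slc16a3* minus *Slc16a1* -0.12 to 0.27, *Slc2a1* minus *Slc2a3* -0.14 to 0.14, *Pfkp* minus *Pfkl* -0.10 to 0.064, *Aldoc* minus *Aldoa* -0.088 to 0.15, *Bnip3* minus *Bnip3l* -0.22 to 0.19 and *Egln3* minus *Egln1* -0.11 to 0.42. A replicate block cannot change an estimated difference in this balanced design (0.32 for *Pdk1* minus *Pdk3*). With it 275 of all genes had an unadjusted p under 0.05 and 0 an adjusted p under 0.05. Deviations from the group means correlated at -0.16 on average between libraries of the same number and at 0.08 between others, so the numbers were not taken to pair libraries. Among the others, 2 pairs were above 0.1, Control 1 with Nr3c1-Foxp3Cre 2 (r = 0.36) and Control 2 with Nr3c1-Foxp3Cre 3 (r = 0.26).

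The 3 libraries of each group limit the precision, most for *Egln3*, *Ndrg1* and *Ldhb*, and depth is unknown.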
